A study of Mus musculus with 6 samples.

Results

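Immature-like Schwann cells of the mouse sciatic nerve at postnatal days 14 and 7 (P14 and P7) are described here, 294 cells chosen from their own counts out of 9658 cells with Sox10 or Cdh19 in these 2 libraries. A cell was taken if it held a unique molecular identifier (UMI, a tag that marks 1 captured RNA molecule) of Sox10 or Cdh19 and of at least 2 of Sox2, Cxcl14, Dclk1, Pmel and Pla2g7. It could hold at most 1 of the non-myelinating Schwann cell genes Scn7a, Ncam1, L1cam and Chl1, at most 2 of the myelin genes Prx, Mag, Ncmap, Drp2, Gldn and Dusp15, and at most 2 of the division genes Mki67, Top2a, Cenpf, Cdk1, Ube2c and Nusap1. It could hold none of Pdgfra, Cdh5 and Csf1r, which mark mesenchymal, endothelial and macrophage cells. The rule gave 62 of 1512 Sox10 or Cdh19 cells at P14, or 4.10% (exact Clopper-Pearson 95% interval 3.16 to 5.23). At P7 it gave 232 of 8146 cells, or 2.85% (2.50 to 3.23).

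Schwann cells are the glia of peripheral nerve. Their precursors become immature Schwann cells, which then either sort a single large axon and myelinate it or keep small axons together as non-myelinating cells of Remak bundles. Sox2 and the receptor Ngfr are held in the immature state and are lost on myelination, and Sox10 is kept throughout the lineage.

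The study, in mice with the C57BL/6 background, covers droplet-captured sciatic nerve cells from 5 ages (P0 to P60) and nuclei of P14 dorsal root ganglia. Each age was 1 library of pooled animals, 18 at P14 (10 males and 8 females) and 21 at P7 (10 males and 11 females), with no treatment or mutation named in the labels. Of 20260 barcodes kept at P14 and P7 (at least 500 UMIs, 300 genes and at most 20% mitochondrial UMIs), 9038 were from P14 and 11222 from P7, out of 56759 in the series. With 1 library per age and cells chosen on their own counts, no comparison below carries a test. Levels are in CPM, the UMIs of a gene summed over a class of cells and scaled to the total UMIs of that class, and intervals are exact 95% Poisson intervals of counting error, which leave out any variation between animals.

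The immature-like cells summed to 345789 UMIs at P14 and 1659424 at P7, so 10 CPM is about 3 UMIs at P14. Their median depth was 5440 UMIs and 2593 genes at P14 and 6933 UMIs and 2812 genes at P7. The other Sox10 or Cdh19 cells had a median of 5164 UMIs at P14 and 8709 at P7. Scrublet called 1 of the 62 cells at P14 and 2 of the 232 at P7 doublets, against 4.62% and 5.70% of the other Sox10 or Cdh19 cells. The libraries shared 24 barcodes (0.261% of those at P14 and 0.212% of those at P7). The P14 library was made with Cell Ranger 5.0.1 and the P7 library with 7.0.0, so software and age cannot be told apart in any P14 and P7 comparison.

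**Figure D1:**
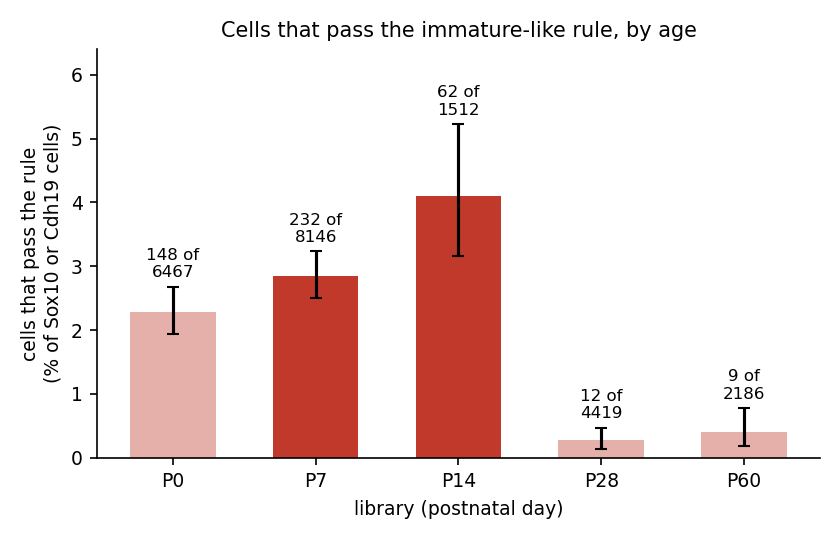
Share of Sox10 or Cdh19 cells that pass the immature-like rule in each nerve library, in percent, with exact 95% Clopper-Pearson intervals and the counts above the bars. P7 and P14, in dark red, are the libraries described here. The P0 library had a share of 2.29%, P7 2.85%, P14 4.10%, P28 0.272% and P60 0.412%.

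Sox2 and Dclk1, genes that chose the cells, were the most widely detected of the 5 markers. Sox2, a transcription factor of the immature state, had a UMI in 87.1% of the immature-like cells at P14 and 91.4% at P7. Dclk1, a microtubule-binding kinase, had one in 87.1% at P14 and 75% at P7. Cxcl14, a chemokine, had one in 50.0% and 54.3% at these ages, and Pla2g7, the platelet-activating factor acetylhydrolase, in 19.4% and 36.6%. Pmel, a protein of melanosome fibrils, had one in 8.06% at P14 and 28.4% at P7. The summed level of Pmel was 34.7 CPM at P14 and 256 at P7, while Cxcl14 stood at 495 and 250.1.

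Many immature-like cells lay at the threshold of the rule. Exactly 2 markers were detected in 39 of 62 cells at P14 and in 113 of 232 at P7, and all 5 in 1 cell at P14 and 21 at P7. The pair Sox2 and Dclk1 alone admitted 25 cells at P14 and 50 at P7. Just inside the threshold, cells with exactly 2 markers held 465 CPM of Sox2 at P14 and 456 at P7. Just outside it, 39 cells at P14 and 266 at P7 met every other condition with 1 marker, which was Sox2 in 43.6% of them at P14 and in 84.6% at P7. The cells just outside held 171 CPM of Sox2 at P14 and 517 at P7.

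The levels of the markers were also read from counts that did not choose the cells. Each cell's UMIs were split at random in equal parts, the rule was applied to one part, which took 53 cells at P14 and 235 at P7, and the levels were read from the other part. Sox2 then stood at 332 CPM in the immature-like cells and 111 in the other cells at P14, and at 482 and 117 at P7. Dclk1 stood at 470 and 71.2 CPM at P14, and at 403 and 32.7 at P7. Cxcl14 stood at 602 and 46.5 CPM at P14, and at 237 and 43.1 at P7. These markers were higher in the immature-like cells in both libraries in the held-out part as well. Both parts come from the same cells, so this is expected of any gene that varies between cells and does not show a separate population. At P14 the held-out part of the immature-like cells also held barred genes, with 43.9 CPM of Cdh5, 18.8 of Pdgfra and 0 of Csf1r.

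Outside the rule's 26 genes, a gene was counted as higher or lower in the immature-like cells when its level, with 1 CPM added, differed at least 2-fold the same way in both libraries. It also had to reach 10 CPM in the higher class in both. Against the other Sox10 or Cdh19 cells, 222 of 8866 genes were higher (2.5%) and 398 were lower (4.49%). Because the cells were chosen from these same counts, the folds describe the choice and its companions. Scaling by the median of ratios, which shifted the log2 ratios by -0.13 at P14 and -0.25 at P7, gave 155 higher and 502 lower genes. The higher share of the calls was then 23.6%, against 35.8% by totals.

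The 12 genes furthest above the other cells were Nr1h4, Ucn2, Slc17a8, Lgals3, Runx2, Syt4, Phyhipl, Btc, Ptgds, Serpinb1a, Rit2 and Runx2os1, called the leading genes here. Lgals3, which encodes the sugar-binding protein galectin-3, had 451 CPM in the immature-like cells and 121 in the other cells at P14, a log2 ratio of 1.89. At P7 it had 1643 CPM in the immature-like cells and 27.9 in the other cells, a log2 ratio of 5.83. Serpinb1a, an inhibitor of leukocyte elastase, had 283 CPM in the immature-like cells and 49.3 in the other cells at P14, and 168 CPM in the immature-like cells and 9.94 in the other cells at P7. Ptgds, a prostaglandin D synthase, had 116 CPM in the immature-like cells and 14.6 in the other cells at P14, and 119 CPM in the immature-like cells and 9.13 in the other cells at P7. For these 3 genes both libraries showed a higher level in the immature-like cells, by 3.73 times or more.

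The transcription factor gene Runx2 had 28.9 CPM in the immature-like cells and 1.98 in the other cells at P14, and 54.2 CPM in the immature-like cells and 3.30 in the other cells at P7. Its antisense gene Runx2os1 was read at 11.6 CPM in the immature-like cells and 0.88 in the other cells at P14, and at 17.5 and 0.872 at P7. All P14 UMIs of Runx2os1 came from 1 cell. Nr1h4, the bile acid receptor, had 20.2 CPM in the immature-like cells and 0.22 in the other cells at P14, and 38.6 CPM in the immature-like cells and 1.10 in the other cells at P7. It was found in 5 of 62 cells at P14 and 40 of 232 at P7, so at P14 it rests on 7 UMIs.

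Several leading genes encode signals or parts of the release machinery. Btc, a ligand of the EGF receptor, had 63.6 CPM in the immature-like cells and 3.96 in the other cells at P14, and 28.9 CPM in the immature-like cells and 3.37 in the other cells at P7. Ucn2, the peptide urocortin 2, had 14.5 CPM in the immature-like cells and 0.66 in the other cells at P14, and 104 CPM in the immature-like cells and 2.13 in the other cells at P7. Slc17a8, a vesicular glutamate transporter, had 31.8 CPM in the immature-like cells and 2.31 in the other cells at P14, and 85.0 CPM in the immature-like cells and 2.30 in the other cells at P7. These genes were higher in both libraries, with P14 values from few cells, 9 for Btc, 4 for Ucn2 and 5 for Slc17a8. Syt4, a synaptotagmin of secretory vesicles, had 11.6 CPM in the immature-like cells and 0.44 in the other cells at P14, where 1 immature-like cell held all of its UMIs, and 157 CPM in the immature-like cells and 10.2 in the other cells at P7.

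**Figure D2:**
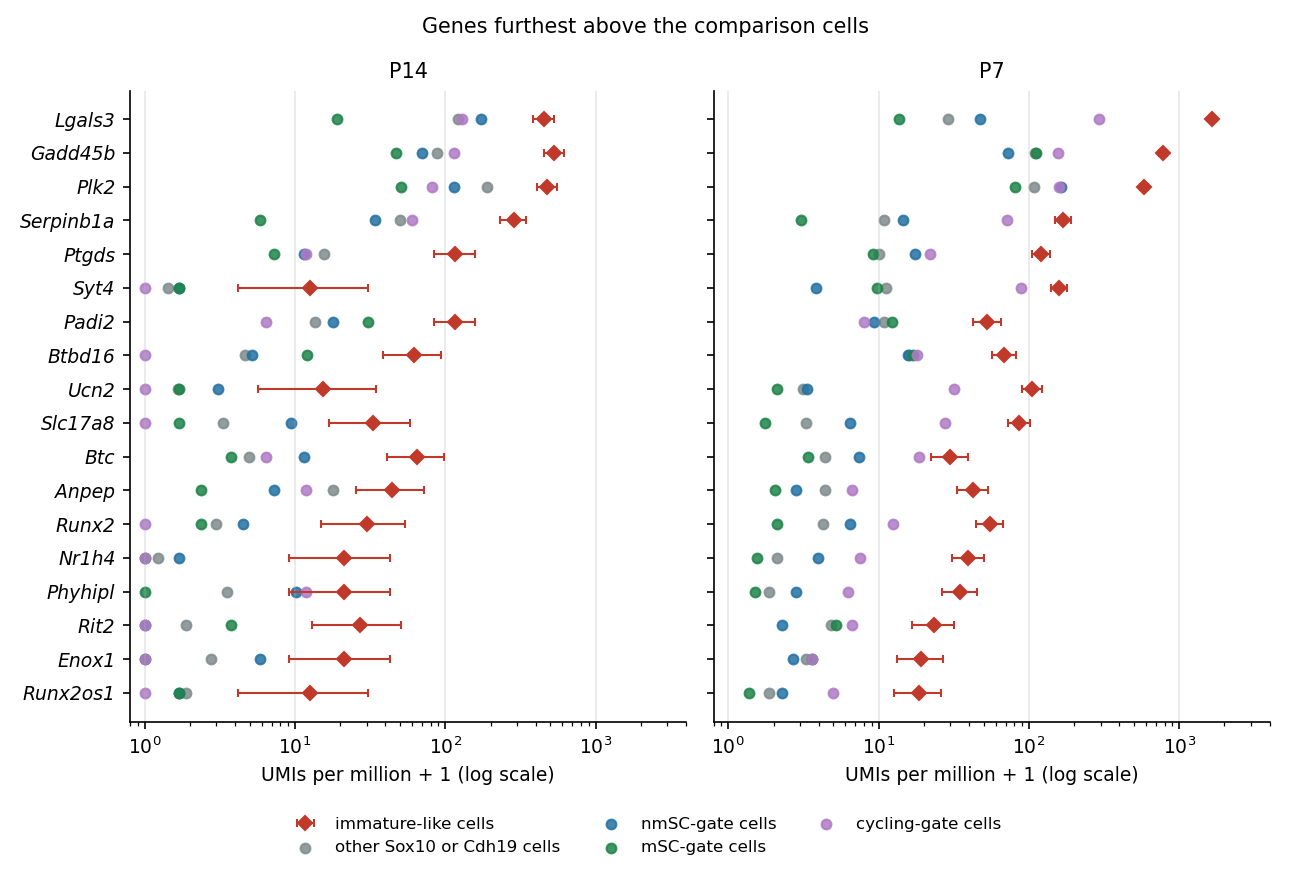
Levels of the 18 genes furthest above the comparison cells at P14 (left) and P7 (right), as CPM plus 1 on a log axis. Red diamonds with exact 95% Poisson intervals are the immature-like cells and round points the other classes. The red diamonds lie to the right of every round point in both libraries, and the P14 intervals are the wider ones.

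The other cells are a mixture, so the immature-like cells were also set against 3 classes of the same libraries defined by the rule's own genes. The classes are 413 cells at P14 and 1502 at P7 with at least 2 non-myelinating genes (the nmSC gate, for non-myelinating Schwann cells), 250 and 4075 cells with at least 3 myelin genes (the mSC gate, for myelinating ones), and 28 and 208 cells with at least 3 division genes (the cycling gate). Against each of the 3 gates in both libraries, 65 of 8258 genes were higher (0.787%) and 23 were lower (0.279%). Gadd45b, a stress-inducible gene of the growth arrest and DNA damage family, was the most abundant of the 10 genes with the largest smallest fold. It stood at 529 CPM (95% interval 455 to 612) in the immature-like cells at P14, against 68.5 in the nmSC gate, 45.8 in the mSC gate and 113 in the cycling gate. At P7 it stood at 779.8 CPM (738 to 823) in the immature-like cells, against 71.1, 110.1 and 156 in the same 3 gates. The levels of the 3 gates lay far below the interval of the immature-like cells at both ages.

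Plk2, a polo-like kinase, and Padi2, which converts arginine to citrulline in proteins, were also above all 3 gates. Plk2 had 477 CPM in the immature-like cells at P14, against 112 in the nmSC gate and 49.9 in the mSC gate, and 584 CPM at P7, against 162 and 79.3. Padi2 had 116 CPM in the immature-like cells at P14, against 16.8 and 29.8 in these gates, and 51.8 at P7, against 8.39 and 11.2. Plk2 had a UMI in 43 of 62 immature-like cells at P14 and 171 of 232 at P7, Gadd45b in 42 and 157, and Padi2 in 25 and 61. With every cell thinned to 2000 UMIs, Gadd45b was still found in 44.3% of the immature-like cells and 12.1% of the other cells at P14, and in 55.1% and 13.4% at P7. Padi2 was found in 21.3% of the thinned immature-like cells and 2.55% of the other cells at P14, and in 6.61% and 1.81% at P7. The other genes of this set were Btbd16, Anpep, the surface aminopeptidase N, and Enox1, at 18.1 to 67.5 CPM in the immature-like cells of either library, with Nr1h4, Runx2, Ptgds and Runx2os1 already described.

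Of the genes below all 3 gates, Sema6d, a transmembrane semaphorin, had the highest level in the mSC gate. It stood at 52.1 CPM in the immature-like cells at P14, against 442 in the nmSC gate and 744 in the mSC gate, and at 35.0 at P7, against 229 and 432. Matrix genes were among them. Col28a1 had 23.1 CPM in the immature-like cells, 538 in the nmSC gate and 210.2 in the mSC gate at P14, and 27.7, 172 and 90.5 at P7. The aggrecanase gene Adamts5 had 28.9, 316 and 182 CPM in the same order at P14, and 34.3, 239.9 and 117 at P7. Fst, the activin-binding protein follistatin, and Sfrp5, a secreted Wnt antagonist, were lower too, with Fst at 8.68 CPM in the immature-like cells against 247 in the nmSC gate at P14, and 17.5 against 177 at P7. Also below all 3 gates were Scn3b, Calhm5, Col14a1, Kcnmb4os2 and Rgcc, at 0 to 33.7 CPM in the immature-like cells.

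The leading genes were not spread evenly over the immature-like cells. None of the 12 had a UMI in 19 of 62 cells (30.6%) at P14 and in 81 of 232 cells (34.9%) at P7. At least 4 were found in 9 cells (14.5%) at P14 and 56 cells (24.1%) at P7, against 0.621% and 1.20% of the other Sox10 or Cdh19 cells. The 12 were picked as furthest above the other cells in these counts, so this difference was built in. At P7 the cells with at least 4 leading genes held 96.4% of all Lgals3 UMIs, and 47 of the 56 had at least 3 of the 5 markers. Their median depth was 9947 UMIs, against 5289 in the cells with none of the 12, and the part of depth in this split was not tested.

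Lgals3 itself was carried by few cells. It had a UMI in 24 of 62 immature-like cells at P14 and 56 of 232 at P7. At P7, 29 cells with at least 10 UMIs held 97.1% of its 2727 UMIs, and 1 cell held 566 of them. Without that cell the P7 level was 1314 CPM, and without the largest P14 cell, which held 46 of 156 UMIs, the P14 level was 323 CPM. After thinning to 2000 UMIs the share of cells with Lgals3 was 26.2% in the immature-like cells and 8.26% in the other cells at P14, and 18.9% and 1.91% at P7, and without thinning 38.7% and 14.4% at P14 and 24.1% and 5.34% at P7. In mSC-gate cells the thinned share was 0.410% at P14 and 0.936% at P7. Their unthinned share was 2.00% and 3.17%, at median depths of 5668 and 9978 UMIs. In nmSC-gate cells the thinned share was 13.3% at P14 and 3.95% at P7, and the unthinned share 18.2% and 7.86%. The part of free RNA in these shares was not tested.

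The marker combinations differed in these genes at P7. At P7 the 119 cells with at least 3 markers held 244 CPM of Syt4, 147 of Ucn2 and 121 of Slc17a8, and the 50 cells with Sox2 and Dclk1 only held 17.0, 10.2 and 37.5 CPM. At P14 the 23 cells with at least 3 markers held 19.4 CPM of Ucn2 and 45.3 of Slc17a8, and the 25 cells with Sox2 and Dclk1 only 17.1 and 34.2, with overlapping intervals. Lgals3 stood at 2017 CPM in the first class at P7, where 37.0% of cells had a UMI, and at 1691 CPM in the second, from 7 of 50 cells. The 63 cells with another pair held 561 CPM. Sox4, a transcription factor of immature and progenitor cells, varied less, at 1951 CPM with at least 3 markers, 2236 with Sox2 and Dclk1 only and 1819 with another pair. At P14, with 23, 25 and 14 cells in these classes, Sox4 stood at 1289, 1162 and 1776 CPM.

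**Figure D3:**
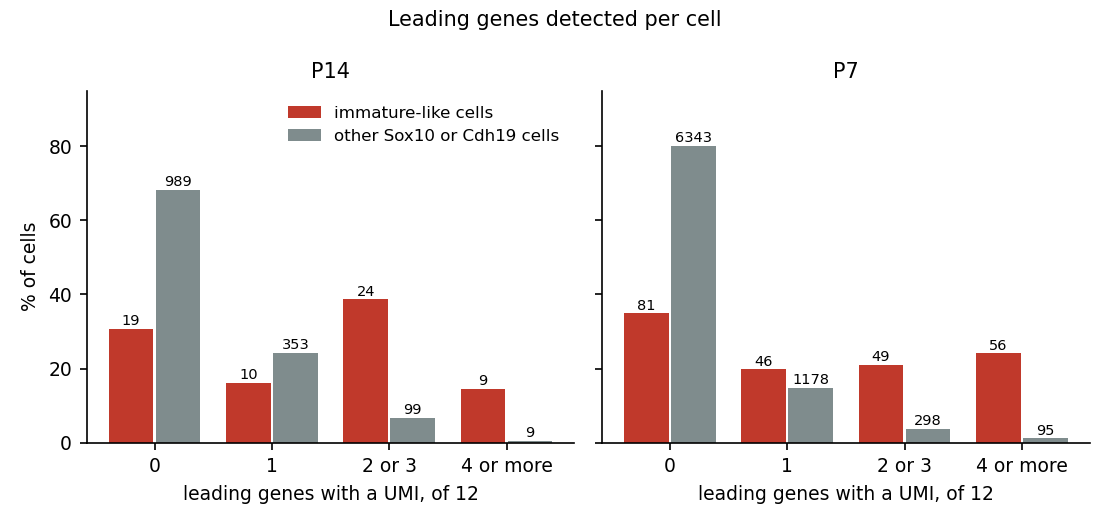
Percent of immature-like cells (red) and of the other Sox10 or Cdh19 cells (grey) by how many of the 12 leading genes had a UMI, at P14 (left) and P7 (right), with the number of cells above each bar. At least 4 were carried by 9 immature-like cells and 9 of the other cells at P14, and by 56 and 95 at P7. The 12 genes were picked for being higher in the immature-like cells of these libraries.

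Cells rich in leading genes also stood outside the rule. At P7, 95 other cells held at least 4 of the 12, of which 93 had at least 2 of the 5 markers. Of these 95, 54 had more than 2 myelin genes, 50 more than 1 non-myelinating gene, 25 more than 2 division genes and 13 a gene of the barred cell types, and 52 missed a single condition. Their median depth was 14673 UMIs, and the part of depth in their count was not tested. At P14 there were 9 such cells, of which 8 had at least 2 markers. The cycling gate at P7 held 292 CPM of Lgals3, 87.2 of Syt4 and 70.6 of Serpinb1a, above the nmSC gate at 45.9, 2.84 and 13.6.

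Promoters of 3 of the genes above all 3 gates are shown because RUNX and AP-1 factors, whose genes Runx2, Fos and Jun were read in these cells, have short known motifs. The windows are the 250 bases before the start in RefSeq's GRCm38.p6 table, 5′ to 3′ on the gene's strand, with matches to TGTGGT (RUNX) or TGANTCA (AP-1) on either strand in capitals. Runx2 lies on the minus strand at chr17:44814628-44814877, Nr1h4 on the minus strand at chr10:89506659-89506908 and Ptgds on the minus strand at chr2:25469750-25469999. The 3 windows shown each hold a match, so they do not stand for the set. Of the other genes named above all 3 gates, Anpep held a RUNX match. Gadd45b, Plk2, Btbd16, Padi2 and Enox1 held no match to either motif.
Runx2: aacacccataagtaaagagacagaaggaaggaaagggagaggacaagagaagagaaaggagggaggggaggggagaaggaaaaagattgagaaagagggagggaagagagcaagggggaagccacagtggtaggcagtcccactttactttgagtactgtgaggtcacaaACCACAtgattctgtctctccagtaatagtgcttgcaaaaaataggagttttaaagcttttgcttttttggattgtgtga
Nr1h4: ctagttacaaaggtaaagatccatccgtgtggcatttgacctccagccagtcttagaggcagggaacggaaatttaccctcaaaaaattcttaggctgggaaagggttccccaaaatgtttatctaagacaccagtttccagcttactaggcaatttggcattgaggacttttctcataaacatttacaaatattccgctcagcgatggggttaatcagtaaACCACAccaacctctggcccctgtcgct
Ptgds: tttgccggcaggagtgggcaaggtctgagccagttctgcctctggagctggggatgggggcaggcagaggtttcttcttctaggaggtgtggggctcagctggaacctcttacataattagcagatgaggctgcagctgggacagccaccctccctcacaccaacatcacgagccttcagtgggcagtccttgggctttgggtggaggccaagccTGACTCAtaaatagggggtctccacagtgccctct
Of the 65 genes higher than all 3 gates, 51 had a promoter in the table, and 6 of these (11.8%) held the RUNX letters and 5 (9.80%) the AP-1 letters. Of 6515 promoters of the genes tested, 9.62% held the RUNX letters and 3.59% the AP-1 letters, and over all 27025 promoters the shares were 14.2% and 6.87%. A match is a run of letters and does not show binding.

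Among 14 genes of Schwann lineage identity, 10 reached the level needed, 2 were higher than in the other cells and 1 was lower. Here and for every list below, 2.5% of all genes were higher and 4.49% lower than in the other cells. With 1 to 3 genes called, a list count is a description only. The median log2 ratio was 1.00 at P14 and 0.52 at P7, against 0.05 and 0.20 over 9412 genes. The p75 neurotrophin receptor gene Ngfr had 457 CPM in the immature-like cells and 106 in the other cells at P14, and 269 CPM in the immature-like cells and 40.5 in the other cells at P7. It was also above the nmSC gate, which held 352 CPM at P14 and 156 at P7. Sox5, a transcription factor gene, was the other higher one, with 83.9 CPM in the immature-like cells and 18.7 in the other cells at P14, and 75.9 CPM in the immature-like cells and 24.1 in the other cells at P7.

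Of 22 genes of the immature state and inhibitors of myelination, 15 reached the level, 3 were higher (Sox4, Ngfr and Id4) and 3 were lower (Id1, Id3 and Cdh2). The median log2 ratio was 0.09 at P14 and 0.58 at P7, so the set as a whole stood at the level of all genes at P14. Sox4 had 1351 CPM in the immature-like cells and 364 in the other cells at P14, and 1973 CPM in the immature-like cells and 502 in the other cells at P7. Cdh2, the N-cadherin of Schwann cell precursors and Remak cells, had 14.5 CPM in the immature-like cells and 95.8 in the other cells at P14, and 3.01 CPM in the immature-like cells and 20.3 in the other cells at P7. Id3, an inhibitor of basic helix-loop-helix factors, had 52.1 CPM in the immature-like cells and 423 in the other cells at P14, and 10.2 CPM in the immature-like cells and 73.8 in the other cells at P7. Jun, a transcription factor that opposes myelination, had 1102 CPM in the immature-like cells and 629 in the other cells at P14 and 4017 CPM in the immature-like cells and 2691 in the other cells at P7, short of 2-fold in both. Beyond the markers of the rule, genes of the immature state thus lay on both sides, and the name immature-like is used here for the cells that meet the rule. Id4 did not pass with the median of ratios, nor without the cells that carry genes of barred types. Without those cells Id1 did not pass either, and Zeb1 was higher.

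None of 22 measured promyelinating regulators passed the 2-fold rule in either direction, with a median of 0.20 at P14 and 0.22 at P7. Pou3f1 (Oct6), the transcription factor of the promyelinating stage, had 2209 CPM in the immature-like cells and 531 in the other cells at P14, and 1848 CPM in the immature-like cells and 1012 in the other cells at P7. At P14 its level in the immature-like cells was above that of the mSC gate (1588 CPM) and the nmSC gate (407 CPM). Egr2 (Krox20), which drives myelin genes, had 57.8 CPM in the immature-like cells and 52.4 in the other cells at P14, and 175 CPM in the immature-like cells and 329.9 in the other cells at P7, with 179 and 424 CPM in the mSC gate. Zeb2, a repressor of myelination inhibitors, had 1799 CPM in the immature-like cells and 779 in the other cells at P14, and 1141 CPM in the immature-like cells and 678 in the other cells at P7.

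Of 23 measured genes of compact myelin and the myelin membrane, 6 were lower and none was higher, where 4.49% and 2.5% of all genes were. Pmp22, a structural myelin protein, had 743 CPM in the immature-like cells and 3927 in the other cells at P14, and 1312 CPM in the immature-like cells and 15477 in the other cells at P7. The mSC gate held 16827 CPM of Pmp22 at P14 and 21925 at P7, and the nmSC gate 1675 and 2140.2. Mbp, Mal, Fa2h and Ugt8a were among the others lower by the rule. The median of the list was -0.55 at P14 and -1.19 at P7 (-1.03 at P7 with genes at 0 set to 3 UMIs). Against the mSC gate 17 of 24 genes were lower, where 4.22% of all genes were. The rule limits myelin genes and the mSC gate requires them, so lower myelin genes against that gate were partly set by the choice. Against the nmSC gate 4 of 23 were higher and 2 lower, where 2.36% and 4.88% of all genes were.

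Sterol and fatty acid synthesis, which supplies myelin lipids, showed the most genes in 1 direction. Of 28 measured genes 13 were lower in the immature-like cells and none was higher, against a background of 4.49%. Hmgcs1, an early enzyme of the cholesterol pathway, had 162 CPM in the immature-like cells and 488 in the other cells at P14, and 173 CPM in the immature-like cells and 1464 in the other cells at P7. Idi1, which acts later in the pathway, had 49.2 CPM in the immature-like cells and 127 in the other cells at P14, and 48.2 CPM in the immature-like cells and 445 in the other cells at P7. Both were higher in the other cells in both libraries. The list's median was -0.98 at P14 and -2.17 at P7. Against the mSC gate 24 of 28 genes were lower, and against the nmSC gate 2 of 26. Over all genes 4.22% were lower than in the mSC gate and 4.88% lower than in the nmSC gate. The rule limits myelin genes and the mSC gate requires them, and the part of this choice in the sterol counts was not tested. The regulator genes Srebf1 and Srebf2 did not pass the rule, with Srebf2 at 109.9 CPM in the immature-like cells and 114 in the other cells at P14, and 50.0 and 88.8 at P7.

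**Figure D4:**
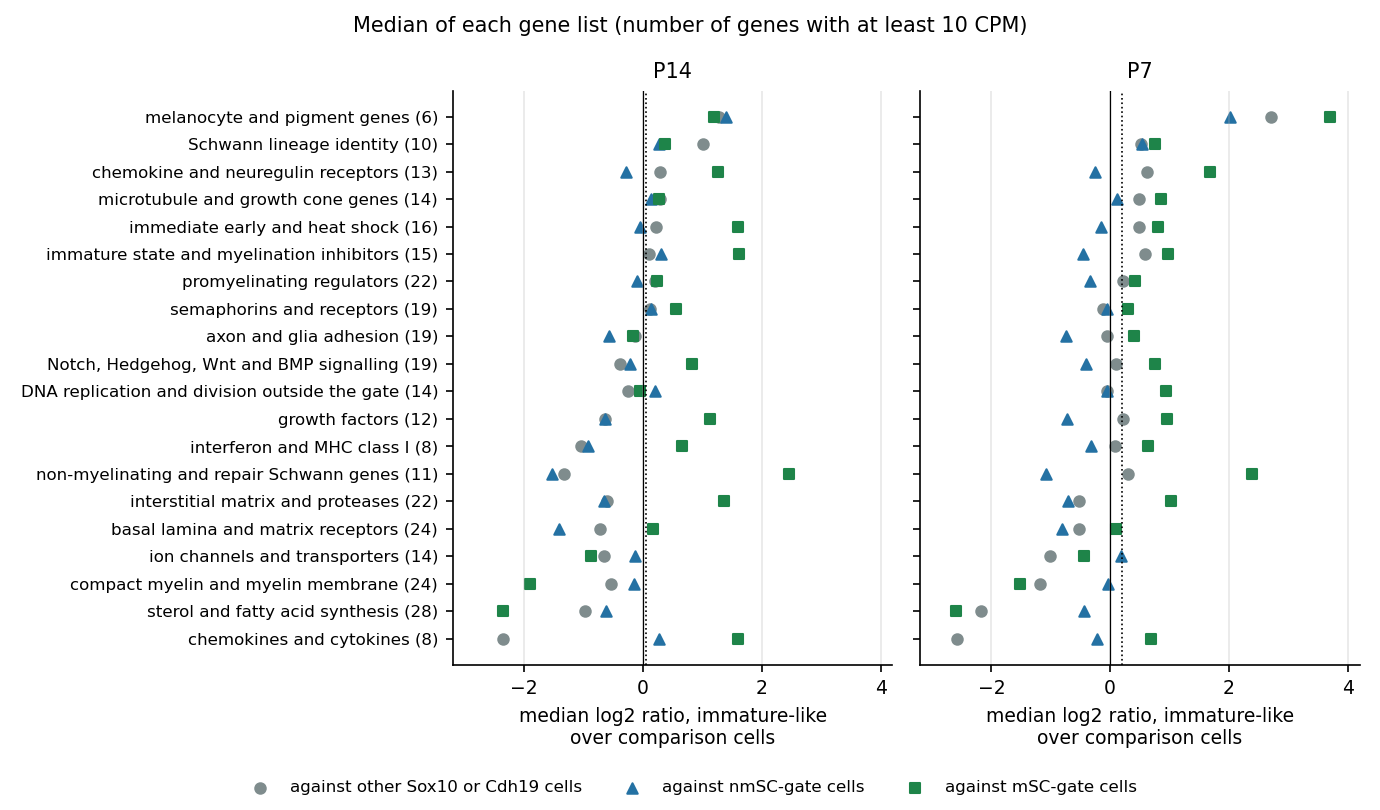
Median log2 ratio of the immature-like cells over 3 comparison classes for each of 20 gene lists at P14 (left) and P7 (right), with the number of genes in each median in brackets and the median over all genes as a dotted line. Sterol and fatty acid synthesis lies furthest below the mSC gate in both libraries, and non-myelinating and repair genes lie above the mSC gate and below the nmSC gate. Both gates require genes that the rule limits in the immature-like cells.

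The non-myelinating and repair list held both directions. Of 11 measured genes 2 were higher (Runx2 and Atf3) and 2 lower (Matn2 and Apod) than in the other cells. Against the nmSC gate 1 of 12 was higher and 7 lower, but the rule limits non-myelinating genes and that gate requires them. Apod did not pass without the cells that carry genes of barred types, where its mean log2 ratio changed sign. Matn2, a matrix protein of Remak cells, had 92.5 CPM in the immature-like cells and 1875 in the nmSC gate at P14, and 91.6 and 812 at P7. Ptn, the growth factor pleiotrophin, had 353 CPM in the immature-like cells and 1058 in the nmSC gate at P14, and 262 and 761 at P7. Atf3, a stress-induced transcription factor, had 214 CPM in the immature-like cells and 61.9 in the other cells at P14, and 1444 CPM in the immature-like cells and 429.7 in the other cells at P7, but the nmSC gate held 147 and 1226. Over all genes, 211 of 8928 were higher (2.36%) and 436 lower (4.88%) than in the nmSC gate. Against the mSC gate 642 of 8555 genes were higher (7.5%) and 361 lower (4.22%).

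Of 23 measured basal lamina genes and matrix receptors, 4 were lower than in the other cells and 10 lower than in the nmSC gate. None was higher in either, and over all genes 4.49% and 4.88% were lower in these 2 comparisons. Lamb2, Lamc1 and Col4a1 did not pass without the cells that carry genes of barred types, where Lama2 was the 1 lower gene and Gpc1 was higher. Lama2, a laminin chain of the Schwann cell basal lamina, had 219.8 CPM in the immature-like cells, 442 in the other cells and 888 in the nmSC gate at P14. At P7 the levels were 118, 260.0 and 399 in the same order. Itga6, a laminin receptor subunit, had 497 CPM in the immature-like cells and 1803 in the nmSC gate at P14, and 337 and 919.9 at P7. Itgb8, an integrin subunit that binds latent TGF-beta, ran the other way, with 1044 CPM in the immature-like cells and 324 in the other cells at P14. At P7 Itgb8 had 649.6 CPM in the immature-like cells and 337 in the other cells, just under 2-fold. Without the cells that carry genes of barred types its log2 ratio was 0.79 at P14 and 0.78 at P7, short of 2-fold at both ages.

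Of 21 measured genes of the interstitial matrix and its proteases, 8 were lower and 2, the inhibitor genes Timp2 and Timp3, were higher, though neither of the 2 was past 2-fold with the median of ratios. Timp3 had 1692 CPM in the immature-like cells and 789 in the other cells at P14, and 1739.8 CPM in the immature-like cells and 786 in the other cells at P7. Collagen gene Col3a1 had 816 CPM in the immature-like cells and 4040.2 in the other cells at P14, and 823 CPM in the immature-like cells and 4822 in the other cells at P7. The other cells held genes of barred types, since 41.2% of all Sox10 or Cdh19 cells at P14 and 15.4% at P7 carried Pdgfra, Cdh5 or Csf1r. Without those cells 3 genes of this list were lower and 1, Vcan, was higher, while Timp2 and Timp3 did not pass. The other cells then held 271 CPM of Dcn at P14 in place of 2755. In the same comparison 12 genes of the myelin list and 21 of the sterol list were lower, more than the 6 and 13 against all other cells.

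The 12 genes furthest below the other cells were Nupr1, Igf1, Sept3, Lum, Sox9, Plcb1, Thbs4, Arhgdib, Dlk1, Foxd1, Ogn and C2. Of these, 10 had no UMI in the immature-like cells at P14, a floor of 8.68 CPM (3 UMIs). Nupr1 was thus at least 14.1-fold lower and Lum, a proteoglycan of fibroblasts, at least 10.0-fold lower at P14. At P7 Lum had 18.7 CPM in the immature-like cells and 215 in the other cells. Sept3 and Plcb1 were higher in the mSC gate (207 and 80.5 CPM at P14) than in the nmSC gate (5.59 and 4.89). The other cells included cells with Pdgfra, Cdh5 or Csf1r, and without these Lum stood at 4.77 CPM in the other cells at P14, under the floor, and at 17.2 at P7, so that no bound could be given at P14 and the P7 level was not lower. Nupr1 then stood at 24.96 CPM in the other cells at P14 and 8.62 at P7. Igf1, Sox9, Thbs4, Arhgdib, Dlk1, Foxd1 and C2 were short of 2-fold at P7 in that comparison, while Sept3, Plcb1 and Ogn remained past it at both ages. Against all other cells the levels were 8.68 CPM of Thbs4 and 11.6 of Ogn in the immature-like cells at P14, against 333 and 348 in the other cells.

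Among signals, Cxcl10 was higher and 5 of 8 measured chemokines and cytokines were lower, where 2.5% and 4.49% of all genes were. Cxcl10, an interferon-induced chemokine, had 338 CPM in the immature-like cells and 39.9 in the other cells at P14, and 819 CPM in the immature-like cells and 145 in the other cells at P7. The nmSC gate held 104 CPM at P14 and 546 at P7. Cxcl12, a chemokine of stromal cells, had 57.8 CPM in the immature-like cells and 864 in the other cells at P14, and 6.03 CPM in the immature-like cells and 45.5 in the other cells at P7, and the 5 lower genes of this list did not pass once cells with barred genes left the comparison. The median of the chemokine list at P14 was -2.35, or -0.74 with genes at 0 set to 3 UMIs. Of 11 measured growth factors Btc was higher and Igf1 lower, but without the cells that carry genes of barred types Igf1 did not pass and Mdk was higher beside Btc.

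Of 12 measured receptors of chemokines, neuregulins and related signals, 2 were higher (Ngfr and Ednrb) and 2 lower (Egfr and Ntrk2). Over all genes 2.5% were higher and 4.49% lower. Neither Egfr nor Ntrk2 passed without the cells that carry genes of barred types. Ednrb, the endothelin B receptor of neural crest cells, had 1102 CPM in the immature-like cells and 220.1 in the other cells at P14, and 1436 CPM in the immature-like cells and 268 in the other cells at P7. It was also above the nmSC gate, at 546 CPM at P14 and 1011 at P7. The neuregulin receptor gene Erbb3 had 405 CPM in the immature-like cells and 211 in the other cells at P14, and 377 CPM in the immature-like cells and 244 in the other cells at P7, and did not pass. Gfra1, a receptor of the neurotrophic factor GDNF, had 46.3 CPM in the immature-like cells and 37.8 in the other cells at P14, and 186 CPM in the immature-like cells and 46.7 in the other cells at P7.

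Pigment cell genes were partly present. Of 5 measured genes of this list 3 were higher, Ednrb, Dct and Tyrp1, where 2.5% of all genes were. Dct, an enzyme of melanin synthesis, had 14.5 CPM in the immature-like cells and 1.21 in the other cells at P14, and 28.3 CPM in the immature-like cells and 2.60 in the other cells at P7. Tyrp1, another such enzyme, had 11.6 CPM in the immature-like cells and 2.31 in the other cells at P14, all in 1 immature-like cell, and 44.6 CPM in the immature-like cells and 4.69 in the other cells at P7. The defining melanocyte genes Tyr, Mlana, Slc45a2 and Oca2 had no UMI in the immature-like cells of either library. Other cells without Pdgfra, Cdh5 or Csf1r held 0 to 0.28 CPM of each at P14 and 0 to 0.11 at P7. These levels lay under the floors of 3 UMIs in the immature-like cells, 8.68 CPM at P14 and 1.81 at P7. The absence of UMIs therefore does not set the immature-like cells apart from the other cells. The 8 melanocyte markers summed to 54.9 CPM in the immature-like cells and 35.2 in the other cells at P14, and 111 and 45.0 at P7.

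Of 13 measured microtubule and growth cone genes 2 were higher and none was lower, where 2.5% and 4.49% of all genes were. Mapt, the axonal microtubule protein tau, had 168 CPM in the immature-like cells and 50.8 in the other cells at P14, and 151 CPM in the immature-like cells and 37.9 in the other cells at P7. Tubb3, a tubulin best known from neurons, had 37.6 CPM in the immature-like cells and 3.19 in the other cells at P14, and 25.3 CPM in the immature-like cells and 2.77 in the other cells at P7, while the neuronal genes Rbfox3, Snap25 and Elavl4 had no UMI in the immature-like cells. Basp1, a growth cone protein, had no UMI in the immature-like cells and 18.1 CPM in the other cells at P14, and 68.1 CPM in the immature-like cells and 14.4 in the other cells at P7. Of 15 measured semaphorins and their receptors 2 were higher (Plxna1 and Plxna4) and 3 lower (Sema5a, Sema6c and Nrp1). Plxna1 was short of 2-fold with the median of ratios. Nrp1 did not pass without the cells that carry genes of barred types, where Nrp2 was lower and Sema3g higher. Plxna4, a semaphorin receptor subunit, had 89.7 CPM in the immature-like cells and 30.7 in the other cells at P14, and 22.9 CPM in the immature-like cells and 5.06 in the other cells at P7.

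The remaining lists had few genes past 2-fold, beside shares over all genes of 2.5% higher and 4.49% lower. Of 20 measured adhesion genes Cadm1, which binds axonal partners, was higher and Cdh2 lower. Cadm1 had 385 CPM in the immature-like cells and 155 in the other cells at P14, and 351 CPM in the immature-like cells and 101 in the other cells at P7, and it did not pass without the cells that carry genes of barred types. Of 15 measured Notch, Hedgehog, Wnt and BMP genes the Wnt antagonist Sfrp1 was higher and Id1 lower. None of 16 measured replication and division genes was higher and 2 were lower, Birc5 and Ccnb1, and the rule itself limits division genes. Without cycling cells in the comparison the mean log2 ratios of both changed sign. Atf3 was the only one of 15 measured immediate early and heat shock genes that passed. None of 7 measured interferon and MHC class I genes passed in either direction. Of 12 measured ion channels and transporters 4 were lower, among them Slc36a2, Slc16a1 and Kcnk1, with Kcnk1, a potassium channel, at 19.9 CPM in the immature-like cells and 199 in the other cells at P7. Slc16a1 did not pass without the cells that carry genes of barred types, where Kcna2 and Atp1b2 were lower.

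Between the ages, 1555 of 9794 genes were at least 2-fold higher in the immature-like cells at P14 than at P7 (15.9%) and 604 were lower (6.17%). Median-of-ratios scaling shifts this comparison by -0.29 and gave 829 higher and 1073 lower genes, so the higher share of the calls was 43.6% in place of 72.0%. Of the 1555 genes, 713 were also higher at P14 in the other cells, which is 45.9% of these genes and 31.0% of the 2300 in the other cells. Of the 604 lower genes 116 were also lower in the other cells, 19.2% of these genes and 31.3% of the 371 there. The 2300 and 371 are out of 10312 genes tested in the other cells, so sharing is to be read against those counts. They were called by totals, and median-of-ratios scaling shifts the P14 over P7 log2 ratios of the other cells by -0.74. Software, depth and library differ along with age.

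The genes named between the ages are the 8 in each direction whose P14 over P7 ratio lay furthest from that of the other cells. Lgals3 was among those lower at P14. It stood at 451 CPM in the immature-like cells at P14 and 1643 at P7, a ratio of 0.275 (0.232 to 0.323). In the other cells its log2 ratio of P14 over P7 was 2.08 by totals, before the scaling shift. Hpgd, which inactivates prostaglandins, stood at 8.68 CPM at P14 and 239 at P7, where 1 of 24 cells held 32.2% of its UMIs. Gpnmb, a glycoprotein of melanosomes and lysosomes, stood at 2.89 CPM at P14 and 43.4 at P7. Wnt16, a Wnt ligand, had no UMI at P14, which allows up to 8.68 CPM, and 21.1 CPM at P7. Basp1 and Pcdh17, a protocadherin, were lower at P14 too, with Pcdh17 at 20.2 CPM at P14 and 85.0 at P7. Eln stood at 11.6 CPM at P14 and 80.8 at P7, but 91.8% of its P7 UMIs came from 1 cell.

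Genes higher at P14 rested on few cells. Lrrc75b stood at 31.8 CPM at P14 and 2.41 at P7, and the sterol enzyme gene Hsd17b7 at 31.8 and 7.83. Pde3a, Map3k7cl, Ndufa4l2 and Hrc stood at 26.0 to 75.2 CPM at P14 from 2 or 3 cells each, and at 0.603 CPM or below at P7. Retnla and Plac9a were named for the other cells' change. Retnla had 23.1 CPM in the immature-like cells and 748 in the other cells at P14, and no UMI in either at P7. Plac9a had no UMI in the immature-like cells at P14 and 28.9 CPM at P7, where the other cells held 259.9.

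Those P14 values move with mural genes. Of the mural markers (Rgs5, Acta2, Myh11, Notch3 and Kcnj8, of which Kcnj8 had no UMI), 2 immature-like cells at P14 and 1 at P7 held at least 2. The 5 summed to 492 CPM in the immature-like cells and 434 in the other cells at P14, and to 67.5 and 88.9 at P7. Without those cells, removed after the values were seen, Pde3a, Map3k7cl and Ndufa4l2 stood at 0 at P14 and Hrc at 6.03 CPM, the smooth muscle gene Myh11 stood at 3.01 CPM at P14 in place of 188, and Eln at 6.67 CPM at P7 in place of 80.8. Lgals3 then stood at 470.2 CPM at P14 and 1652 at P7.

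Genes of the Schwann lineage were read at both ages as well. Ngfr stood at 457 CPM at P14 and 269 at P7, a ratio of 1.70 (1.41 to 2.04). Pou3f1 stood at 2209 CPM at P14 and 1848 at P7, a log2 ratio of 0.26, which the scaling shift of -0.29 takes to about 0, so its direction depends on the scaling. Sox4 had a ratio of 0.685 (0.62 to 0.754).

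The same rule applied to the other nerve libraries took 148 cells at P0, 12 at P28 and 9 at P60. The leading genes, which had been picked at P7 and P14, had 0 to 3 UMIs each in the P0 cells. Lgals3 stood at 2.88 CPM in the P0 cells, 1643 at P7 and 451 at P14, against 9.70, 27.9 and 121 in the other cells of those libraries. Serpinb1a and Nr1h4 had no UMI in the P0 cells, out of 1040947 UMIs. Gadd45b stood at 78.8 CPM in the P0 cells, 779.8 at P7 and 529 at P14, against 69.1, 109 and 86.8 in the other cells. Of the genes of the rule, Cxcl14 stood at 13.4 CPM in the P0 cells, Sox2 at 269 and Dclk1 at 186.

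Among Schwann lineage genes, Ednrb stood at 2371 CPM in the P0 cells and 1607 in the other cells, Ngfr at 69.2 and 92.5, and Sox4 at 907 and 625. The 12 cells at P28 and the 9 at P60 summed to 76521 and 107766 UMIs, so single genes rest on few counts. Lgals3 had 14 UMIs at P28 (183 CPM, against 35.6 in the other cells) and 15 at P60 (139 and 167). Plk2 stood at 288 CPM at P28, against 219 in the other cells, and at 167 and 173 at P60. Ptgds had no UMI in the cells that pass the rule at either age, with 14.1 CPM in the other cells at P28 and 9.35 at P60. Cxcl10 had 20 UMIs at P28 (261 CPM, against 46.5 in the other cells) and 15 at P60 (139 and 32.5). Padi2 had 4 UMIs at P28 (52.3 CPM, against 7.81) and 10 at P60 (92.8 and 10.1).

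**Figure D5:**
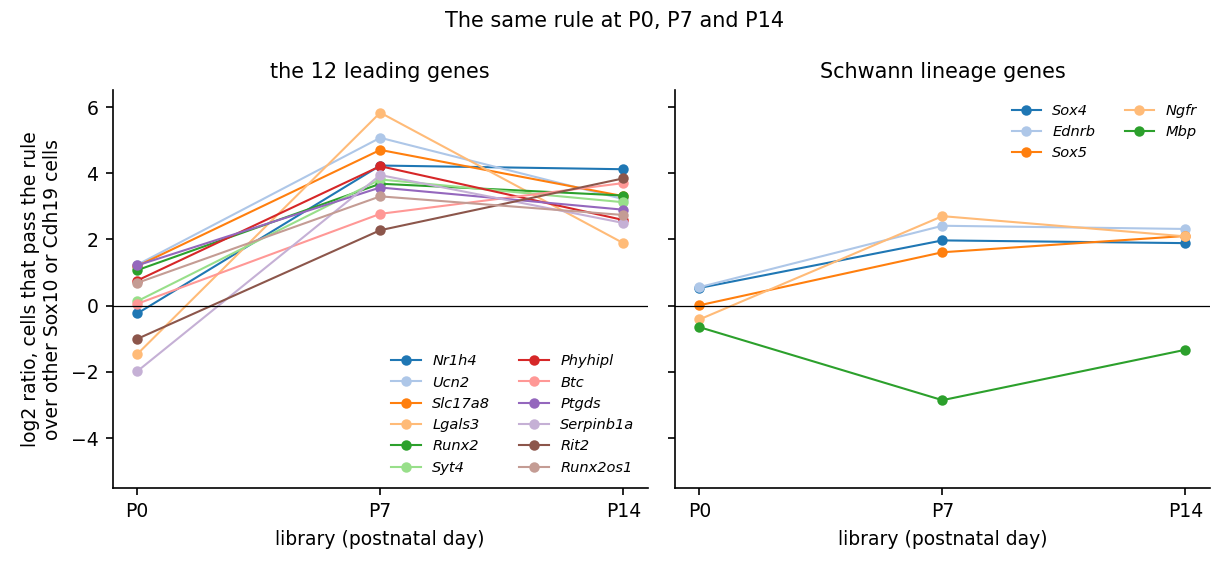
Log2 ratio of the cells that pass the rule over the other Sox10 or Cdh19 cells of the same library (1 CPM added) at P0, P7 and P14, for the 12 leading genes (left) and 5 Schwann lineage genes (right). The leading genes, chosen at P7 and P14, lie between -1.98 and 1.24 at P0, and the myelin gene Mbp lies at -0.65 at P0, -2.85 at P7 and -1.33 at P14.

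Summed markers of other cell types lay below the other cells for the types barred by the rule and on either side for the rest. The other cells still include cells with the barred genes, which the rule and the 3 gates leave out, so the lower sums were partly set by the choice. The 4 macrophage markers summed to 46.3 CPM in the immature-like cells and 312 in the other cells at P14, and to 14.5 and 64.0 at P7, with Csf1r at 0 by choice. The 6 mesenchymal markers summed to 1709 CPM in the immature-like cells and 6294 in the other cells at P14, and to 873 and 5553 at P7, while the mSC gate held 986 and 753. The 4 endothelial markers summed to 37.6 CPM in the immature-like cells and 1254 in the other cells at P14, and to 6.03 and 33.5 at P7. In the nmSC and mSC gates they summed to 71.3 and 65.2 CPM at P14, and to 2.32 and 12.4 at P7. The 4 satellite glia markers summed to 179 CPM in the immature-like cells and 172 in the other cells at P14, and to 209.7 and 228 at P7. The 5 neuronal markers summed to 37.6 CPM in the immature-like cells and 7.04 in the other cells at P14, and to 25.9 and 3.82 at P7, with Tubb3 the main one read. The 5 perineurial markers summed to 171 CPM in the immature-like cells and 819 in the other cells at P14, and to 83.8 and 138 at P7. The 3 red cell genes summed to 121 CPM in the immature-like cells and 447 in the other cells at P14. Their part in the results was not tested.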

How the data were processed

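Single cells of pooled sciatic nerves (nuclei for the P14 dorsal root ganglia) were counted with Cell Ranger 5.0.1 (P0, P14, P28 and P60), 7.0.0 (P7) or 7.1.0 (ganglia), per the file headers. The deposited values are raw UMI counts per gene and barcode. The mm9 genome and Seurat are named in the submitters' processing notes, and their role is not given in the sources used here. Rule genes were matched by Ensembl ID. UMIs were summed per class and scaled to CPM (totals), with 1 CPM added before log2 ratios. Intervals are exact Poisson or Clopper-Pearson intervals at 95%. Tools were Python 3.11.15, numpy 2.4.6, scipy 1.17.1, pandas 2.3.3 and scanpy 1.11.5, whose Scrublet called doublets, which stayed in. The steps were tested on simulated data. No test was run, since each age is 1 library and the cells were chosen on these counts.

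The members and the 20 gene lists were chosen with earlier results of these data known. Named genes are the rule's genes, the 12 furthest above and the 12 furthest below the other cells in mean log2 ratio, the 10 furthest above and below all 3 gates, 8 in each direction between ages, and the 4 furthest from 0 per list. Further list genes were named after their values were seen, and a few genes that the rule names are not reported here. Alternatives are given in the closing section.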

Additional observations from a re-analysis of the deposited data

Results flagged for a closer look

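Cells that meet the rule also occur in nerve libraries outside the comparison of P14 and P7. The rule took 148 cells at P0, 12 at P28 and 9 at P60. Basp1, a growth cone protein gene, lay on opposite sides of the other cells at the 2 ages, with a log2 ratio of -4.26 at P14 and 2.17 at P7. The P14 value comes from 0 UMIs in the immature-like cells, so Basp1 was at least 2.09-fold lower there against a floor of 3 UMIs. Without cells that carry Pdgfra, Cdh5 or Csf1r the other cells held 5.05 CPM of Basp1 at P14, under the floor of 8.68 CPM, so no bound could be given. Tgfb1, which encodes the cytokine TGF-beta 1, had log2 ratios of -1.32 at P14 and 1.04 at P7. Without those cells Tgfb1 had a log2 ratio of -0.36 at P14, short of 2-fold. These differences between the ages were not tested, since each age is 1 library.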

How the results depend on the processing

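The share of immature-like cells moved with depth and with the rule. With every cell thinned to 2000 UMIs before the rule it was 6.00% at P14 and 4.32% at P7, and 140 genes were higher than in the other cells. At least 3 markers left 23 cells (1.52%) at P14 and 119 (1.46%) at P7, and with both Sox10 and Cdh19 detected there were 35 cells (6.78%) at P14 and 136 (4.60%) at P7. Count splitting gave a P7 share of 3.70%. Without the cells admitted by Sox2 and Dclk1 only, an alternative added after seeing the data, 37 cells (2.45%) were left at P14 and the P7 share was 2.23%. The counts of higher and lower genes were 350 and 1074 with no minimum level, 682 and 646 at 1.5-fold, 826 and 1788 at P14 alone, and 540 and 667 at P7 alone. Between the ages, the median of ratios gave 829 higher and 1073 lower genes. The log2 ratio changed sign for Apod (0.044) and Egfr (0.040) without cells that carry Pdgfra, Cdh5 or Csf1r, and for Birc5 (0.29) and Ccnb1 (0.19) without cycling cells. Of 82 named gene ratios past 2-fold, 59 stayed past it without Pdgfra, Cdh5 or Csf1r cells, 65 with both Sox10 and Cdh19, 68 after thinning, 69 with count splitting and 74 to 81 under each of the others that could change this count. Causes were not tested, beyond what each alternative changes by construction. No paired analysis was possible because each age is 1 library and no result comes from a test. At P14 the summed UMIs limit what can be seen, since 3 UMIs correspond to 8.68 CPM there and to 1.81 CPM at P7.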

Other observations

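The rule also took 214 of 2981 Sox10 or Cdh19 nuclei (7.18%) from the P14 dorsal root ganglia, a library of nuclei that also holds ganglion glia and is not comparable in depth or RNA content with the nerve cells. Of 8385 genes, 19 lay at least 2-fold on opposite sides of the other cells at P14 and P7, among them Basp1 and Tgfb1.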
